A study of Homo sapiens with 12 samples.

Results

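The genes described here are 46 genes of DNA replication and of the passage from G1 into S phase: the MCM, GINS, ORC, RFC and E2F families, G1 cyclins and their kinases, and enzymes of deoxynucleotide synthesis. They were chosen by symbol, and all 46 were found, each in 1 of the 20546 array rows that carried a gene symbol and were tested. They were measured in 4 groups of 3 arrays each. These were L-428 tGFP/EBF1, L-428 tGFP, L-1236 tGFP/EBF1 and L-1236 tGFP. L-428 and L-1236 are established lines from Hodgkin lymphoma, a tumour of B-cell origin that has lost much of B-cell gene expression. Cells received a vector carrying the green fluorescent protein tGFP followed by EBF1, a transcription factor of early B-cell development, or a vector with tGFP alone. All 4 groups were therefore transduced, cultured for 8 days and sorted for tGFP, and none was untransduced. The promoter of the vector is not given in the sources used here.

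Replication begins when the origin recognition complex, CDC6 and CDT1 load the MCM2 to MCM7 helicase onto DNA in G1. CDC45, the GINS complex and MCM10 then turn the loaded helicase on, and polymerases, the sliding clamp PCNA and its RFC loaders copy the DNA. D-type cyclins with CDK4 or CDK6, and E-type cyclins with CDK2, release E2F factors from the RB protein, and E2F activates many genes of S phase. Genes of this programme are commonly read as a measure of how many cells of a culture are cycling. In RNA from a whole sorted population, as here, fewer cells in S phase and less RNA of a gene per cell cannot be told apart.

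Values are the deposited log2 signals, and a change is the log2 difference between the means of 3 arrays, written as tGFP/EBF1 minus tGFP. A gene passed when its limma p-value, adjusted by the Benjamini-Hochberg method over 20546 rows, was 0.05 or less, and rose and fell are used only of such genes. EBF1 itself, on a row that the annotation shares with PDGFRB, measured 12.96, 12.98 and 12.93 on the L-428 tGFP/EBF1 arrays, against 8.63, 8.37 and 8.34 on the L-428 tGFP arrays. In L-1236 it measured 13.07, 13.27 and 13.10 with tGFP/EBF1, against 7.24, 7.13 and 7.16 with tGFP. Array medians lay between 7.19 and 7.31, and the number of arrays limits the precision. On 2 arrays the values stood apart. Replicate 3 of L-428 tGFP had an interquartile range of 2.28, against 2.41 to 2.49 on the other L-428 arrays, and was the lowest of its group for 42 of the 46 genes. Replicate 1 of L-1236 tGFP/EBF1 had 2.17, against 2.26 to 2.31 on the other L-1236 arrays, and was the lowest of its group for 35. Results are therefore also given without these arrays. Of the markers, IRF4, BATF3, FSCN1 and TNFRSF8, which Hodgkin cells express, lay far above the array medians in both lines, while group means of the B-cell gene MS4A1 were 5.86 to 5.89. Of 16 Hodgkin and B-lineage markers measured, 3 rose with EBF1 in L-428, CD40 by 1.05, CCL22 by 1.03 and CD79A by 0.23. In L-1236 6 rose, CCL22 by 1.53, CD79A by 1.18, TNFRSF8 by 0.51, CSF1R by 0.36, CD40 by 0.30 and CD79B by 0.26, and GATA3 and FUT4 fell. The mean of the 16 was 9.17, 9.19 and 9.17 on L-428 tGFP/EBF1 arrays, against 9.07, 9.14 and 8.98 on L-428 tGFP arrays. In L-1236 it was 9.14, 9.13 and 9.14 with tGFP/EBF1, against 8.96, 8.91 and 8.90 with tGFP, and its part in the results for the 46 genes was not tested. CD3D, CD3E and CD3G of T cells, LYZ and CD14 of myeloid cells and EPCAM of epithelium averaged below the array medians in all 4 groups. They were picked from longer lists, and levels of the other listed genes are not given here. On single arrays the list means reached at most 6.44 for myeloid markers and 7.03 for T and NK cell markers. For erythroid, stromal and epithelial markers the highest was 7.17. A list mean does not show that each gene was low. None of 5 myeloid or 8 erythroid, stromal and epithelial markers passed with EBF1 in either line. Of 8 T and NK cell markers, 2 rose with EBF1 in L-1236, CD4 by 0.48 and CD3D by 0.32. Of the 8, CD4 alone passed at 2-fold between the lines. As L-428 minus L-1236, it stood at -2.27 in tGFP/EBF1 cells and -1.76 in tGFP cells. The mean of these 8 was 7.01, 6.94 and 7.03 on L-1236 tGFP/EBF1 arrays, against 6.87, 6.82 and 6.84 on L-1236 tGFP arrays, and its part in the L-1236 results was not tested.

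The first question was whether EBF1 changed the replication and G1/S genes. Of the 46, 36 passed in neither line, and the 10 that passed included 4 of the 6 genes that activate the loaded helicase. In L-428, GINS3, GINS4 and CCND1 rose and E2F7 fell, 4 of 46 genes (8.70%), where 4.34% of all tested rows passed (2.62% higher and 1.72% lower, limma). In L-1236, MCM10, GINS2, GINS3, GINS4, CCND1, CCND2 and CDK2 rose and CCNE1, E2F2 and E2F7 fell, 10 of 46 (21.7%), where 9.64% of all rows passed (3.69% higher and 5.95% lower, limma). All 4 genes of L-428 were also among the 10 of L-1236, with the same direction in each line. This is 100% of the L-428 genes and 40% of the L-1236 genes. Over all rows, 305 passed in both lines, 34.2% of those of L-428 and 15.4% of those of L-1236, and 260 of the 305 had the same direction. No member reached the 2-fold change that the study's design text asks for, a size reached with an adjusted p of 0.05 or less by 0.0973% of the tested rows for L-428 and by 0.146% for L-1236. After quantile normalization 7 rose and 1 fell in L-428, and after median centring 4 rose and 3 fell in L-1236. Leaving out replicate 1 of L-428 tGFP/EBF1 left GINS3 and E2F7 as the 2 genes that passed in L-428, and leaving out replicate 2 of L-1236 tGFP left 6 in L-1236.

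**Figure D1:**
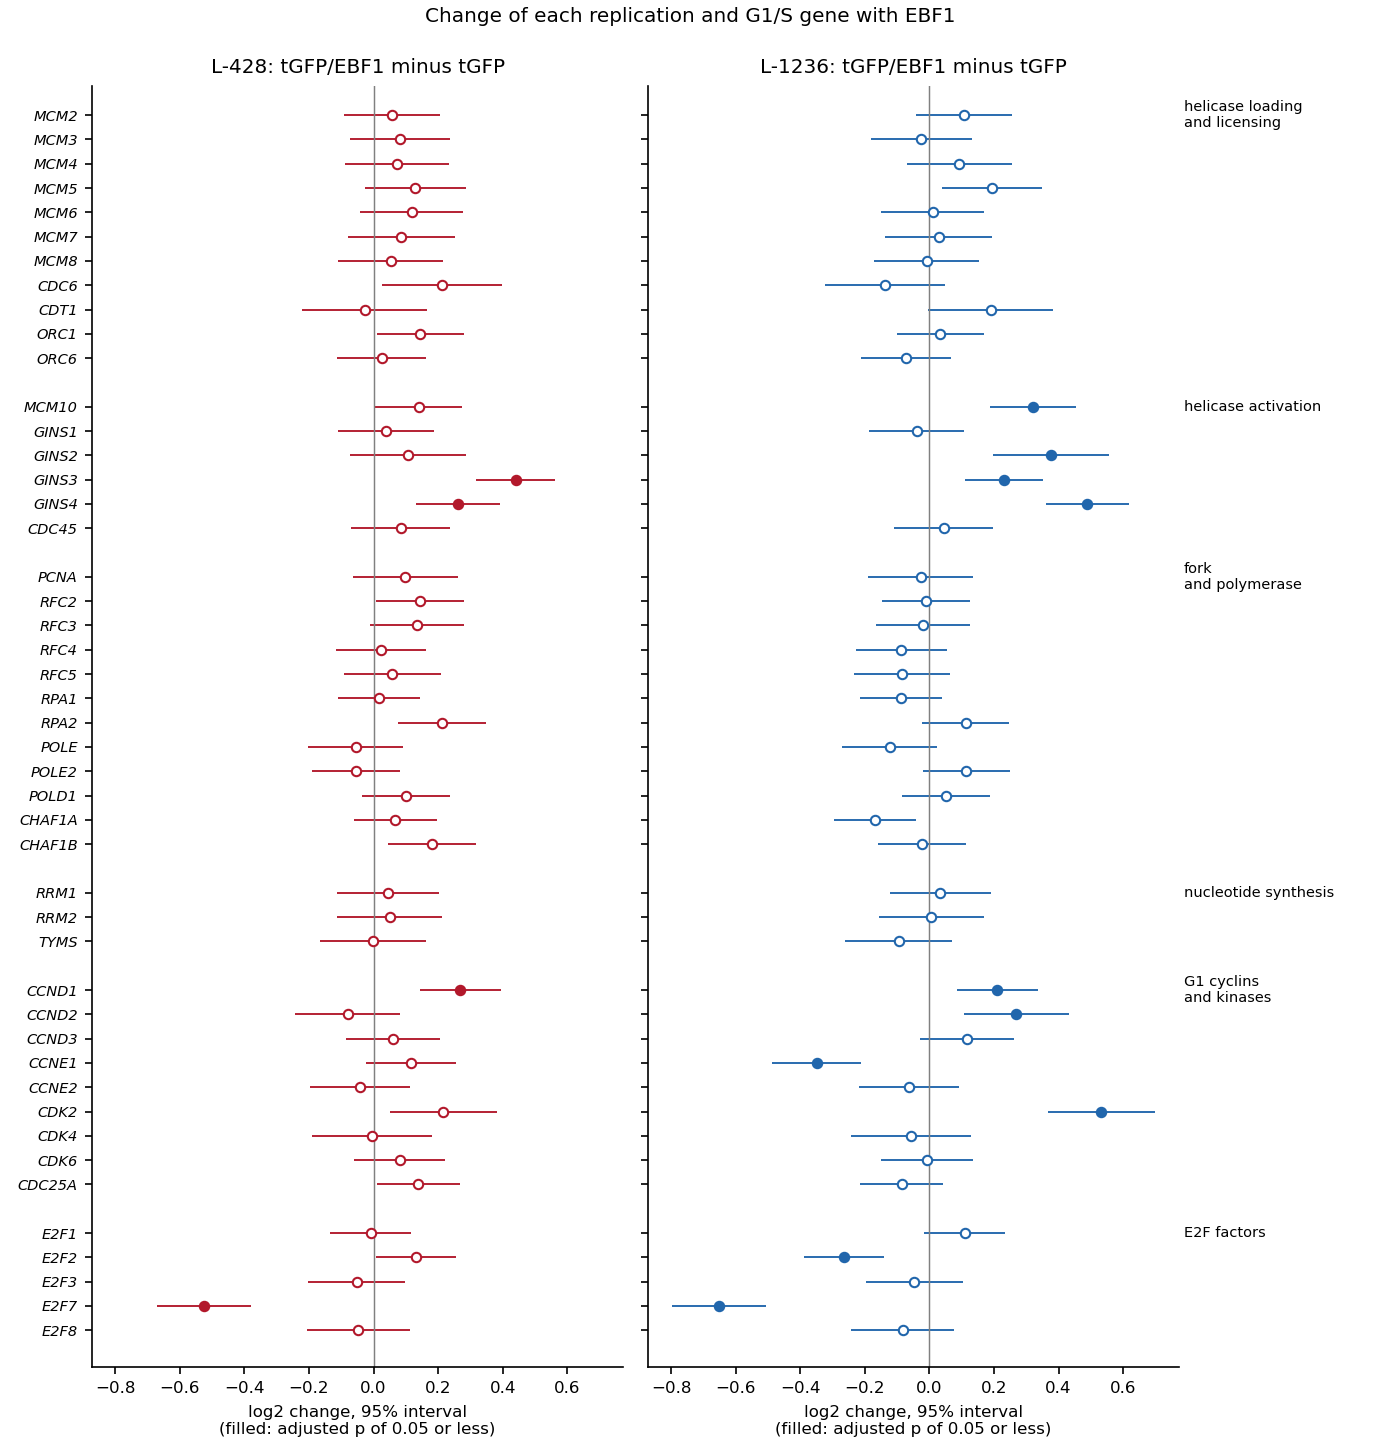
Change with EBF1 (log2, tGFP/EBF1 minus tGFP, horizontal axis) of each of the 46 genes, in L-428 at left and L-1236 at right, with bars for the 95% interval and filled points for an adjusted p of 0.05 or less. The 4 filled points of L-428 recur among the 10 of L-1236, and no gene of the licensing, fork or nucleotide groups is filled.

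Over the 46 genes the median change was 0.076 in L-428, against 0.0037 over all rows, and 35 were above 0. That shift rested on 1 control array. Without replicate 3 of L-428 tGFP the median was 0.00019 and 23 were above 0, while GINS3, GINS4, CCND1 and E2F7 still passed. In L-1236 the median was -0.0079, against 0.0080 over all rows, with 22 above 0. Without both arrays that stood apart it was 0.044, with 30 above 0. The mean signal of the 46 genes was 9.87, 9.83 and 9.87 on L-428 tGFP/EBF1 arrays, against 9.85, 9.86 and 9.65 on L-428 tGFP arrays. In L-1236 it was 9.25, 9.36 and 9.31 with tGFP/EBF1, against 9.25, 9.29 and 9.31 with tGFP. The groups overlapped in both lines.

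None of the 11 genes of helicase loading and licensing passed in either line (limma; 2 in L-428 and 1 in L-1236 at an unadjusted p of 0.05). Their changes ran between -0.03 for CDT1, the loading factor that is destroyed in S phase, and 0.21 for CDC6, its partner ATPase, in L-428. In L-1236 they ran between -0.14 for CDC6 and 0.19 for MCM5, a helicase subunit. CDC6 was the nearest to the threshold in L-428, with 10.17, 10.00 and 10.15 in tGFP/EBF1 cells, against 10.07, 9.96 and 9.66 in tGFP cells (limma, adjusted p = 0.246). Those groups overlapped. MCM5 was the nearest in L-1236, with 9.75, 9.78 and 9.72 in tGFP/EBF1 cells, against 9.51, 9.61 and 9.56 in tGFP cells. Its arrays did not overlap, but the change of 0.19 (95% interval 0.04 to 0.35) had an adjusted p of 0.122 (limma). MCM5 passed in L-1236 in 5 of 25 alternatives, among them quantile normalization and the fit without replicate 3 of L-428 tGFP. CDC6 passed in 1 of 25 in L-428, after quantile normalization. With array weights CDC6 passed in 1 of 25 and CDT1 in 2 of 25 in L-1236. The other helicase subunits, MCM2, MCM3, MCM4, MCM6 and MCM7, together with MCM8, ORC1 and ORC6, lay between 0.02 and 0.14 in L-428 and between -0.07 and 0.11 in L-1236. MCM8 was counted among the 11 by its family name and is not a subunit of the MCM2 to MCM7 helicase.

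Of 6 genes of helicase activation, 2 rose in L-428 and 4 in L-1236, and 0 fell in either, where 2.62% and 3.69% of all rows rose. The difference between roles was not tested. GINS3 and GINS4 encode subunits of the GINS complex, which joins MCM2 to MCM7 and CDC45 to form the active helicase. GINS3 measured 9.43, 9.42 and 9.44 on L-428 tGFP/EBF1 arrays, against 9.03, 9.03 and 8.92 on L-428 tGFP arrays. In L-1236 it measured 9.08, 9.21 and 9.18 with tGFP/EBF1, against 8.93 on each of the tGFP arrays. All tGFP/EBF1 arrays of a line lay above its tGFP arrays, a rise of 0.44 (SE 0.058) in L-428 and 0.23 (SE 0.058) in L-1236, or 1.36-fold and 1.17-fold (limma, adjusted p = 9.4e-05 and 0.0134). The L-1236 call was lost without replicate 2 of tGFP (adjusted p = 0.0540) and without replicate 3 of tGFP/EBF1 (adjusted p = 0.0620), and also after median centring.

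GINS4 measured 9.18, 9.07 and 9.08 on L-428 tGFP/EBF1 arrays, against 8.86, 8.83 and 8.85 on L-428 tGFP arrays. In L-1236 it measured 8.22, 8.36 and 8.29 with tGFP/EBF1, against 7.70, 7.87 and 7.83 with tGFP. The groups were again apart in each line, by 0.26 (SE 0.062) in L-428 and 0.49 (SE 0.062) in L-1236 (limma, adjusted p = 0.0177 and 2.66e-05). The L-428 call was lost without replicate 2 of tGFP (adjusted p = 0.0672), replicate 1 of tGFP/EBF1 (0.115) or replicate 3 of tGFP/EBF1 (0.0574). GINS2, another subunit, measured 11.20, 11.43 and 11.26 in L-1236 tGFP/EBF1 cells, against 10.80, 10.97 and 10.99 in L-1236 tGFP cells. It rose there by 0.38 (SE 0.085; limma, adjusted p = 0.00677). In L-428 GINS2 measured 11.92, 11.97 and 11.83 with tGFP/EBF1, against 11.86, 11.94 and 11.60 with tGFP, groups that overlapped (0.11, adjusted p = 0.72).

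MCM10, which binds the loaded helicase and is needed for it to start unwinding, measured 10.05, 10.16 and 10.20 on L-1236 tGFP/EBF1 arrays, against 9.84, 9.84 and 9.77 on L-1236 tGFP arrays. This rise of 0.32 (SE 0.064) had an adjusted p of 0.00248 (limma). L-428 gave 11.34, 11.34 and 11.31 with tGFP/EBF1, against 11.27, 11.22 and 11.07 with tGFP. These did not overlap either, but the change of 0.14 did not pass (adjusted p = 0.317). GINS1, the remaining GINS subunit, differed by 0.04 in L-428 and -0.04 in L-1236, and CDC45 by 0.08 and 0.04, with no pass. Thus 3 of 4 GINS subunits passed in L-1236 and 2 of 4 in L-428. Averaged over the 6 genes, signal was 10.23, 10.21 and 10.21 in L-428 tGFP/EBF1 cells, against 10.09, 10.08 and 9.94 in L-428 tGFP cells. In L-1236 the average was 9.60, 9.77 and 9.71 with tGFP/EBF1, against 9.40, 9.49 and 9.49 with tGFP. The tGFP/EBF1 and tGFP averages did not overlap in either line, but they include the genes that passed on these same arrays and so add no separate test. The licensing, fork and nucleotide averages overlapped in both lines. Those of the G1 cyclins and kinases and of the E2F factors overlapped in L-428 and were apart in L-1236.

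**Figure D2:**
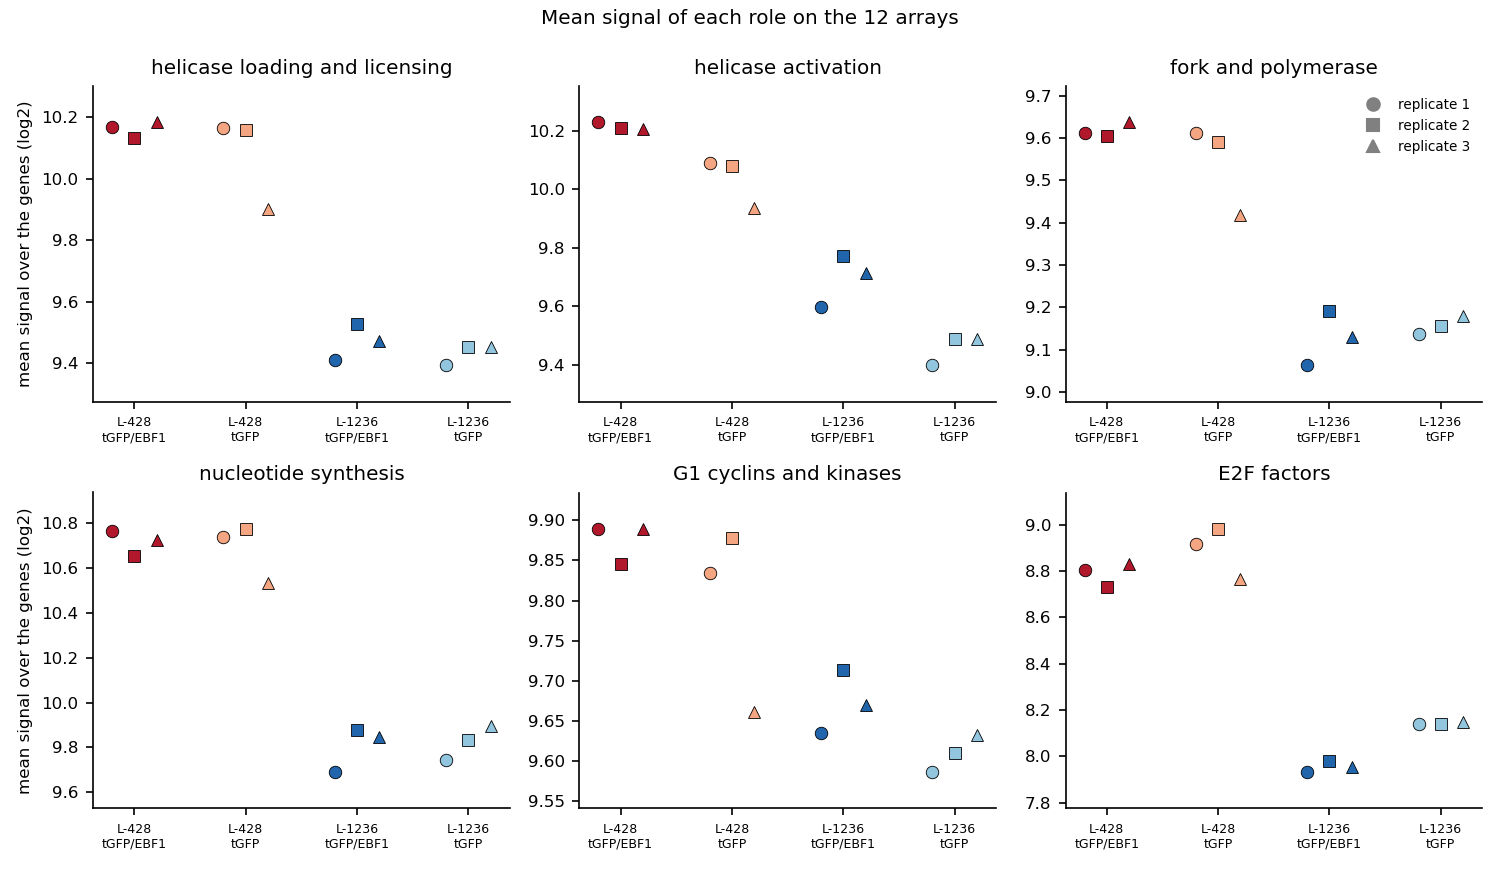
Mean log2 signal (vertical axis) of the genes of each role on the 12 arrays, by group, with the marker shape giving the replicate. The tGFP/EBF1 arrays lie above the tGFP arrays of their line for helicase activation, and replicate 3 of L-428 tGFP is the lowest of the 3 L-428 tGFP arrays in every panel.

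Fork and polymerase genes held 12 members and none passed in either line (limma; 3 in L-428 and 1 in L-1236 at an unadjusted p of 0.05). For 12 genes a count of 0 is near the 4.34% and 9.64% of all rows that passed in L-428 and L-1236. RPA2, a subunit of the single-strand DNA binding protein RPA, came nearest in L-428, with 8.53, 8.46 and 8.56 in tGFP/EBF1 cells, against 8.33, 8.37 and 8.21 in tGFP cells. The arrays did not overlap and the change was 0.21 (95% interval 0.08 to 0.35; limma, adjusted p = 0.0748). In L-1236 the nearest was CHAF1A, the large subunit of the chromatin assembly factor that follows the fork. It measured 9.22, 9.35 and 9.28 in tGFP/EBF1 cells, against 9.43, 9.51 and 9.42 in tGFP cells, a difference of -0.17 (95% interval -0.30 to -0.04; limma, adjusted p = 0.0976). In L-428 RPA2 passed in 4 of 25 alternatives and CHAF1B in 1, both after quantile normalization among them. In L-1236 CHAF1A passed in 3 of 25. With array weights RPA1, RPA2, POLE and POLE2 each passed there in 2 of 25. The clamp PCNA differed by 0.10 in L-428 and by -0.03 in L-1236. POLE and POLE2 of polymerase epsilon differed by -0.06 and -0.05 in L-428 and by -0.12 and 0.11 in L-1236.

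All 3 enzymes of nucleotide synthesis stayed short of the threshold, also at an unadjusted p of 0.05 (limma, 0 in both lines). With only 3 genes this is near the 4.34% and 9.64% of all rows that passed in L-428 and L-1236. RRM1 and RRM2, the subunits of ribonucleotide reductase, differed by 0.04 and 0.05 in L-428 and by 0.03 and 0.01 in L-1236. The largest of the 3 in L-428 was RRM2, with 10.56, 10.49 and 10.52 in tGFP/EBF1 cells, against 10.50, 10.53 and 10.39 in tGFP cells, groups that overlapped. TYMS, which makes the thymidine nucleotide dTMP, was the nearest in L-1236, with 9.95, 10.07 and 10.05 in tGFP/EBF1 cells, against 10.04, 10.12 and 10.19 in tGFP cells. That difference was -0.10 (95% interval -0.26 to 0.07). The interval of RRM2 was -0.11 to 0.21 in L-428, so a change as large as that of GINS3 lay outside it.

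Among 9 G1 cyclins and kinases, 1 rose and 0 fell in L-428, where 2.62% of all rows rose and 1.72% fell. In L-1236 3 rose and 1 fell, where 3.69% of all rows rose and 5.95% fell. CCND1, a D-type cyclin, measured 8.73, 8.74 and 8.68 on L-428 tGFP/EBF1 arrays, against 8.42, 8.49 and 8.43 on L-428 tGFP arrays. It measured 7.998, 7.855 and 7.906 on L-1236 tGFP/EBF1 arrays, against 7.75, 7.63 and 7.74 on L-1236 tGFP arrays. There was no overlap in either line, and the rises were 0.27 (SE 0.059) and 0.21 (SE 0.059; limma, adjusted p = 0.0118 and 0.0292). Neither call held throughout. The L-428 call was lost without replicate 1 or 2 of tGFP/EBF1 (adjusted p = 0.0581 and 0.0633), and the L-1236 call without replicate 2 or 3 of tGFP or replicate 1 or 3 of tGFP/EBF1. The L-1236 call was also lost after median centring, with every row tested and with only the 6 L-1236 arrays fitted, and passed in 16 of 25 alternatives.

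CDK2, the kinase that pairs with cyclin E, measured 10.99, 11.25 and 11.16 in L-1236 tGFP/EBF1 cells, against 10.62, 10.54 and 10.65 in L-1236 tGFP cells. This was the largest rise among the 46 genes in L-1236, 0.53 (SE 0.079) or 1.45-fold (limma, adjusted p = 0.000151). In L-428 CDK2 measured 11.07, 10.96 and 11.03 with tGFP/EBF1, against 10.90, 10.88 and 10.62 with tGFP, apart by 0.22 without passing (adjusted p = 0.161). CCND2, another D-type cyclin, measured 10.86, 11.01 and 10.94 in L-1236 tGFP/EBF1 cells, against 10.63, 10.71 and 10.66 in L-1236 tGFP cells. It rose by 0.27 (SE 0.078; limma, adjusted p = 0.0332), a call lost without any 1 of the L-1236 tGFP arrays or without replicate 2 or 3 of tGFP/EBF1. It was lost as well after median centring, with every row tested and with trend and robust variance, and passed in 15 of 25 alternatives. L-428 CCND2 was 11.73, 11.75 and 11.69 with tGFP/EBF1, against 11.84, 11.97 and 11.59 with tGFP, and the groups overlapped. The change there was -0.08 and did not pass. It passed below 0 in 3 of 25 alternatives, both array weightings and the fit without both arrays that stood apart. CDK4 and CDK6, the partners of D-type cyclins, and CDC25A, the phosphatase that activates CDK2, did not pass in either line.

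CCNE1, an E-type cyclin, went the other way from CDK2 in L-1236. It measured 8.79, 8.91 and 8.85 in L-1236 tGFP/EBF1 cells, against 9.05, 9.28 and 9.28 in L-1236 tGFP cells, and fell by 0.35 on the log2 scale (SE 0.066; limma, adjusted p = 0.00158). In L-428 it measured 8.34, 8.29 and 8.36 with tGFP/EBF1, against 8.21, 8.22 and 8.20 with tGFP. Those groups did not overlap, yet the change of 0.12 did not pass (adjusted p = 0.502). CCNE2, the second E-type cyclin, differed by -0.04 in L-428 and -0.06 in L-1236.

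Of the 5 E2F factors, 1 fell in L-428 and 2 fell in L-1236, and 0 rose, where 1.72% and 5.95% of all rows fell. E2F7 is an atypical E2F that represses genes of the G1/S programme, unlike the activators E2F1, E2F2 and E2F3. It measured 9.38, 9.33 and 9.45 on L-428 tGFP/EBF1 arrays, against 9.96, 10.02 and 9.74 on L-428 tGFP arrays. On L-1236 tGFP/EBF1 arrays it measured 7.86, 7.91 and 7.85, against 8.51, 8.50 and 8.57 on L-1236 tGFP arrays. The groups were far apart in each line, and this was the largest change of the 46 genes in both, a fall of 1.44-fold in L-428 and 1.57-fold in L-1236. On the log2 scale E2F7 fell by 0.53 (SE 0.069) in L-428 and by 0.65 (SE 0.069) in L-1236 (limma, adjusted p = 9.4e-05 and 3.44e-06). Without replicate 3 of L-428 tGFP the L-428 value was -0.61.

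E2F2 measured 7.19, 7.18 and 7.21 in L-1236 tGFP/EBF1 cells, against 7.42, 7.55 and 7.40 in L-1236 tGFP cells, levels near the array medians. It fell by 0.26 (SE 0.058; limma, adjusted p = 0.00574), a call lost without replicate 2 of L-1236 tGFP (adjusted p = 0.0542). L-428 E2F2 was 8.03, 7.98 and 8.08 with tGFP/EBF1, against 7.90, 7.91 and 7.87 with tGFP, with no overlap and no pass (0.13, adjusted p = 0.293). E2F8, the other atypical repressor, differed by -0.05 in L-428 and -0.08 in L-1236, and E2F1 and E2F3 did not pass in either line. As an average of the 5 factors, signal was 7.93, 7.98 and 7.96 in L-1236 tGFP/EBF1 cells, against 8.14, 8.14 and 8.15 in L-1236 tGFP cells. In L-428 the averages overlapped, with 8.80, 8.73 and 8.83 in tGFP/EBF1 cells, against 8.92, 8.98 and 8.77 in tGFP cells.

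**Figure D3:**
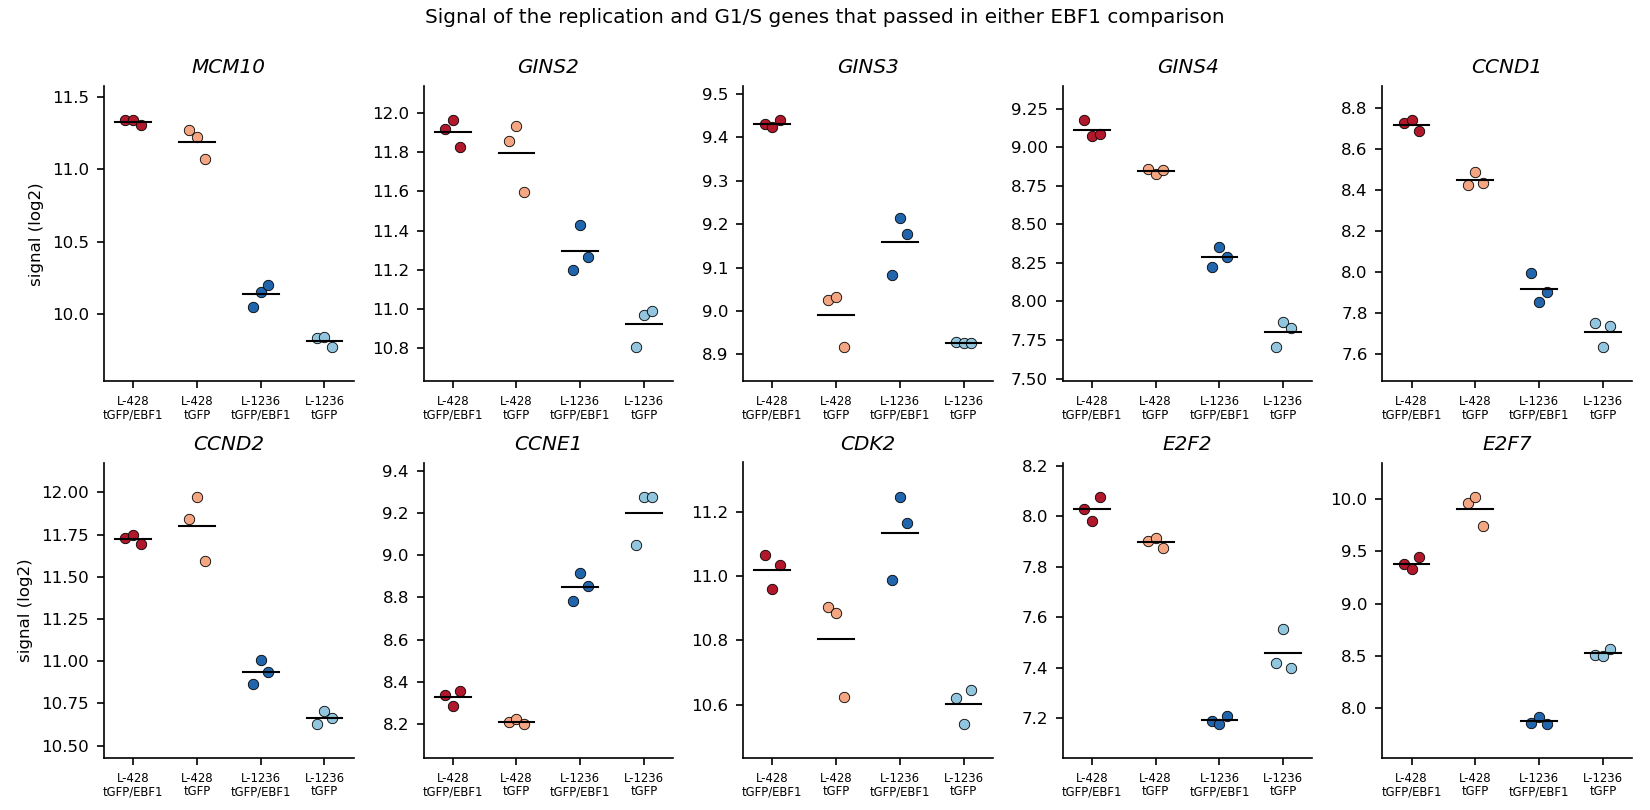
Log2 signal (vertical axis, scaled per gene) of the 10 genes that passed in either EBF1 comparison, as 1 point per array, with a line at each group mean. For E2F7 the tGFP/EBF1 points lie below the tGFP points in both lines, for GINS3, GINS4 and CCND1 above them in both, and for CCNE1 and E2F2 above in L-428 and below in L-1236.

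Promoter sequences are shown for 4 of these genes because genes of this programme are known to be bound by E2F at short sites close to their start. They are the 250 bases before the start from RefSeq, on GRCh38.p14, 5′ to 3′ on the strand of the gene, with capitals for matches to an E2F motif. The motif was any of TTGGCGC or else TTCCCGC or else TTGCCGC or else TTCGCGC, on either strand. E2F7 (chr12:77065570-77065819, minus strand) holds 2 matches, GINS2 (chr16:85688955-85689204, minus strand) and E2F2 (chr1:23531234-23531483, minus strand) 1 each, and GINS3 (chr16:58392221-58392470, plus strand) none.
E2F7: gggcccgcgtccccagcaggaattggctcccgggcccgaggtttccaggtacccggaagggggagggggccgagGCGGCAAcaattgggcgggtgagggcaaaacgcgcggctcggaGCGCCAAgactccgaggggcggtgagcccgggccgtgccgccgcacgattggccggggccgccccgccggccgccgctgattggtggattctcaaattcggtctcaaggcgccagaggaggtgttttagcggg
GINS2: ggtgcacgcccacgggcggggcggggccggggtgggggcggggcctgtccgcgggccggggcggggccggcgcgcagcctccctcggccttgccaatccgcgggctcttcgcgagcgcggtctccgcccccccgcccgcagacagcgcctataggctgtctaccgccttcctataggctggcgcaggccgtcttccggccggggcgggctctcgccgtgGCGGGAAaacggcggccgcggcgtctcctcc
E2F2: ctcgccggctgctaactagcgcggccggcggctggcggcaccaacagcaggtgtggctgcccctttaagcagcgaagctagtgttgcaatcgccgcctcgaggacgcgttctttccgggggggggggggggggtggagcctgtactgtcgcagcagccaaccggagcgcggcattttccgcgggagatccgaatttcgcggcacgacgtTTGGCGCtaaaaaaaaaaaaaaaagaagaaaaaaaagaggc
GINS3: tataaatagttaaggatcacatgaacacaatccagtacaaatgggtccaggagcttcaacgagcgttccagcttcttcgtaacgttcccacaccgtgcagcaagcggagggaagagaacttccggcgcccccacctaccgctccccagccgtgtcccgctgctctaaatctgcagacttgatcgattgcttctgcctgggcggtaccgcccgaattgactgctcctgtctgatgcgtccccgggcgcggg

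The matches begin 176 and 133 bases before the start of E2F7, 31 before that of GINS2 and 41 before that of E2F2. Promoters were listed for 37 of the 46 genes, some with several starts, and 22 of their 48 promoters (45.8%) held an E2F match, against 10.9% of all 35116 promoters of the same length. Among the 10 genes that passed, 6 had a promoter in the table and 3 of these (50%) held a match. The palindromic EBF1 motif, TCCC and GGGA with any 2 bases between them, searched on both strands, was found in 1 of the 48 promoters (2.08%), that of RRM2, and in 0 of the 6 of genes that passed, against 1.06% of all promoters. A match describes letters in this window, not binding, and a gene without a match may be bound elsewhere.

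Whether EBF1 acted unequally in the lines was tested as the difference of the effects, L-428 minus L-1236. CCNE1 (0.46, SE 0.093; limma, adjusted p = 0.00572) and E2F2 (0.40, SE 0.083; adjusted p = 0.00741) passed, 2 of 46 genes (4.35%), where 5.16% of all rows passed (3.38% above 0 and 1.79% below). Both were higher with EBF1 on all 3 arrays in L-428 and lower on all 3 in L-1236. CCND2 (-0.35, 95% interval -0.58 to -0.12, adjusted p = 0.0756) and CDK2 (-0.32, 95% interval -0.55 to -0.08, adjusted p = 0.122) did not pass, so their pass in L-1236 alone does not set the lines apart. The rises of GINS4 and GINS3 differed by -0.23 and 0.21 between the lines, and the falls of E2F7 by 0.13 (95% interval -0.08 to 0.33), with no pass. After quantile normalization 3 differences were above 0 and 3 below. Leaving out replicate 3 of L-428 tGFP gave 6 genes, with CDT1, GINS2, CCND2 and CDK2 joining CCNE1 and E2F2.

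The lines themselves differed far more than EBF1 changed either of them. In tGFP/EBF1 cells 37 genes were higher and 2 lower in L-428 than in L-1236 (limma), 84.8% of the 46, where 50.5% of all rows passed (28.2% higher and 22.3% lower). In tGFP cells, which share no array with the first comparison, 33 were higher and 3 lower, 78.3%, where 47.9% of all rows passed (26.1% higher and 21.7% lower). The median difference over the 46 genes was 0.52 in tGFP/EBF1 cells, against -0.031 over all rows, and 0.44 in tGFP cells, against -0.0063 over all rows. Apart from replicate 3 of L-428 tGFP, the L-428 arrays also had the wider spread of values, and after quantile normalization, which gives all arrays 1 distribution, these medians were 0.37 and 0.32. The same 33 genes passed in both comparisons, 31 higher and 2 lower.

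**Figure D4:**
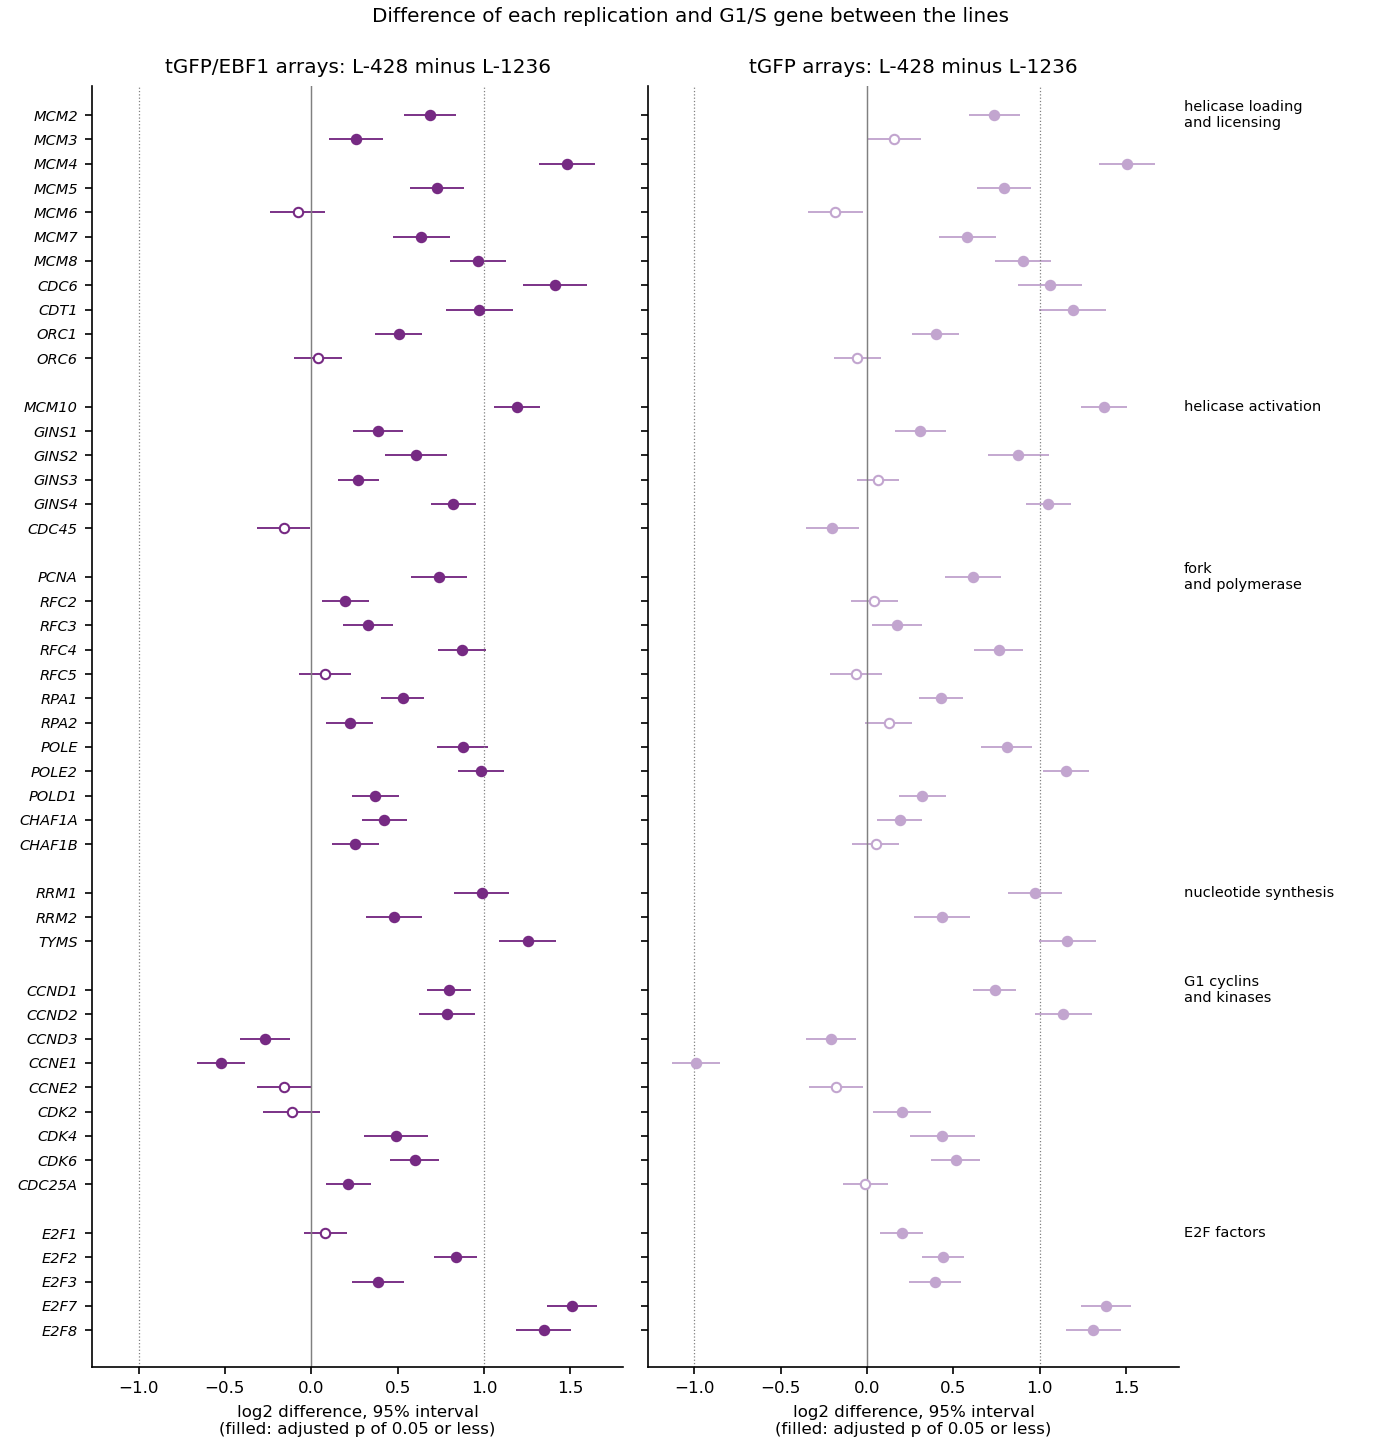
Difference between the lines (log2, L-428 minus L-1236, horizontal axis) of each of the 46 genes, for tGFP/EBF1 cells at left and tGFP cells at right, with 95% intervals, filled points for an adjusted p of 0.05 or less, and dotted lines at a 2-fold difference. Most points lie above 0 in both panels, and CCND3 and CCNE1 are the filled points below 0 in both.

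At least a 2-fold difference with a pass was seen for 6 genes in tGFP/EBF1 cells, where 7.65% of all rows reached it, 4.85% in the direction of L-428. In tGFP cells it was seen for 10 genes, where 7.2% of all rows reached it, 4.16% in that direction. All of these genes were higher in L-428, and MCM4, CDC6, MCM10, TYMS, E2F7 and E2F8 were in both sets. MCM4, a helicase subunit, measured 10.54, 10.45 and 10.44 in L-428 tGFP/EBF1 cells, against 8.92, 9.09 and 8.99 in L-1236 tGFP/EBF1 cells. With tGFP it measured 10.48, 10.52 and 10.23 in L-428, against 8.81, 8.93 and 8.98 in L-1236. The lines were apart by 1.48 (SE 0.077) with EBF1 and 1.50 (SE 0.077) without it (limma, adjusted p = 5.77e-12 and 4.83e-12).

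CDC6 measured 8.59, 8.80 and 8.72 in L-1236 tGFP/EBF1 cells and 8.79, 8.82 and 8.90 in L-1236 tGFP cells. The lines differed by 1.41 with EBF1 and 1.06 without it. TYMS measured 11.33, 11.22 and 11.28 in L-428 tGFP/EBF1 cells and 11.32, 11.43 and 11.08 in L-428 tGFP cells, higher than in L-1236 by 1.25 with EBF1 and 1.16 without. The E2F8 arrays of L-428 gave 9.14, 8.95 and 9.05 with tGFP/EBF1 and 9.09, 9.27 and 8.92 with tGFP, against 7.67, 7.72 and 7.71 with tGFP/EBF1 and 7.82, 7.72 and 7.82 with tGFP in L-1236. That is a difference of 1.34 with EBF1 and 1.31 without. For E2F7 the lines differed by 1.51 and 1.38, and for MCM10 by 1.19 and 1.37. For each of these genes the lowest L-428 array lay above the highest L-1236 array. The genes that passed at 2-fold in tGFP cells alone were CDT1, GINS4, POLE2 and CCND2, at 1.19, 1.05, 1.15 and 1.14, and in tGFP/EBF1 cells they stood at 0.97, 0.82, 0.98 and 0.79.

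A few genes ran against this order. CCNE1 was lower in L-428 than in L-1236, by -0.52 in tGFP/EBF1 cells and -0.99 in tGFP cells. CCND3, the remaining D-type cyclin, measured 9.15, 9.13 and 9.18 in L-428 tGFP/EBF1 cells, against 9.41, 9.43 and 9.41 in L-1236 tGFP/EBF1 cells, and differed by -0.27 there and by -0.21 in tGFP cells. CDC45 passed only between the tGFP groups, at -0.20 (adjusted p = 0.0288), with -0.16 between the tGFP/EBF1 groups (adjusted p = 0.0774). By role, all 3 nucleotide synthesis genes were higher in L-428 in both comparisons, as were 9 of 11 licensing genes and 11 of 12 fork genes in tGFP/EBF1 cells and 8 of each in tGFP cells. G1 cyclins and kinases were the most mixed, with 5 of 9 higher and 2 lower in each comparison. Of 20 genes of cell division, 16 were higher in L-428 and 1 lower in tGFP/EBF1 cells, where 28.2% of all rows were higher and 22.3% lower. In tGFP cells 19 were higher and 0 lower, where 26.1% of all rows were higher and 21.7% lower.

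Other genes of the same pathways were also measured, 108 that are not among the 46. With EBF1, 4 rose and 5 fell in L-428 (8.33% of 108, against 4.34% of all rows), and in L-1236 3 rose and 8 fell (10.2%, near the 9.64% of all rows), with medians of 0.024 and -0.038. The counts moved with the scaling. After median centring 1 rose and 2 fell in L-428, and 2 rose and 4 fell in L-1236. After quantile normalization 7 rose and 8 fell in L-428, and 8 rose and 9 fell in L-1236. They moved with single arrays as well. In L-428 they ran between 3 without replicate 1 or 2 of tGFP/EBF1 and 12 without replicate 3 of tGFP, where the median was -0.027. In L-1236 they ran between 6 without replicate 3 of tGFP/EBF1 and 14 without replicate 3 of L-428 tGFP. Without both arrays that stood apart 4 rose and 16 fell in L-428, and 6 rose and 9 fell in L-1236.

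Of 47 further origin and fork genes, 4 passed in L-428 (2 up, 2 down) and 5 in L-1236 (1 up, 4 down). That is 8.51% in L-428, against 4.34% of all rows, and 10.6% in L-1236, near the 9.64% of all rows. UHRF1, which brings the maintenance DNA methyltransferase to newly copied DNA, rose in both lines, by 0.37 in L-428 and 0.31 in L-1236. It measured 10.60, 10.53 and 10.61 on L-428 tGFP/EBF1 arrays, against 10.30, 10.27 and 10.06 on L-428 tGFP arrays, and the groups did not overlap. ASF1A, a histone chaperone, fell by 0.39 in L-428 and 0.52 in L-1236. On L-1236 tGFP/EBF1 arrays ASF1A measured 7.93, 8.10 and 8.11, against 8.56, 8.53 and 8.61 on L-1236 tGFP arrays, again with no overlap. ORC2, a subunit of the origin recognition complex, fell by 0.34 and MCM9, a relative of the helicase subunits, rose by 0.31 in L-428. POLD3 of polymerase delta fell by 0.29 in L-1236, where MCMBP, a binding partner of the MCM proteins, fell by 0.26. Of these calls, that of MCMBP passed in 14 of 25 alternatives and that of MCM9 in 19, and neither passed after median centring.

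Among 23 further genes of nucleotide supply, 3 passed in L-428 (2 up, 1 down) and 2 in L-1236 (both down). That is 13.0% in L-428, against 4.34% of all rows, and 8.70% in L-1236, near the 9.64% of all rows. MTHFD2, a mitochondrial folate enzyme, fell in both lines, by 0.26 in L-428 and 0.45 in L-1236. UMPS of pyrimidine synthesis (0.25) and IMPDH2 of guanine nucleotide synthesis (0.22) rose in L-428. UMPS passed in 12 and IMPDH2 in 9 of 25 alternatives, and neither passed without replicate 3 of L-428 tGFP (adjusted p = 0.0813 and 0.0734), without any 1 of the L-428 tGFP/EBF1 arrays, after median centring, with every row tested or with a replicate block. The L-428 call of MTHFD2 passed in 15 of 25. TK2, mitochondrial thymidine kinase, fell by 0.27 in L-1236, a call lost after median centring. Of 15 RB family, E2F partner and DREAM genes, 0 passed in L-428 (limma, 3 at an unadjusted p of 0.05), and in L-1236 RB1, the retinoblastoma protein that holds E2F in check, rose by 0.33 while E2F5, a mostly repressive E2F, fell by 0.43 and TFDP2, an E2F partner, by 0.26. These 3 are 20% of the 15, against 9.64% of all rows, and after median centring RB1 and TFDP2 did not pass. The 0 of 15 in L-428 stands against 4.34% of all rows. A further 23 genes were CDK inhibitors, genes of G1/S turnover and other cell cycle regulators, some of which act after G1/S. Of these, 2 fell in L-428 (8.70%, against 4.34% of all rows), neither of them a CDK inhibitor. They were CCNA2, the S phase cyclin (by 0.30), and CDC25C, a phosphatase that activates the mitotic kinase (by 0.23). CCNA2 passed in 16 and CDC25C in 10 of 25 alternatives, and both calls were lost after median centring, without replicate 1 or 2 of L-428 tGFP and without any 1 of the L-428 tGFP/EBF1 arrays. In L-1236 the CDK inhibitor CDKN1A rose by 0.33, with 9.52, 9.49 and 9.52 in tGFP/EBF1 cells, against 9.19, 9.18 and 9.17 in tGFP cells. It alone of the 23 passed there (4.35%, below the 9.64% of all rows). The difference of effects passed for 3 of the 108 (2.78%, where 5.16% of all rows passed). These were CDKN1A (-0.36, limma, adjusted p = 0.00909), E2F5 (0.46, adjusted p = 0.0178) and POLD3 (0.37, adjusted p = 0.0219). After median centring the difference passed for CDKN1A but not for E2F5 or POLD3. This count was not stable. It was 14 after quantile normalization and 13 without both arrays that stood apart, and ran between 1 and 12 with 1 array left out.

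Of 20 cell division genes, which act after S phase, 0 rose and 4 fell in L-428, and 1 rose and 0 fell in L-1236. That is 20% in L-428, against 4.34% of all rows (1.72% lower). In L-1236 it is 5%, below the 9.64% of all rows. BUB1, a spindle checkpoint kinase, fell by 0.36 in L-428, with 10.97, 10.84 and 10.89 in tGFP/EBF1 cells, against 11.28, 11.36 and 11.14 in tGFP cells. KIF20A, a mitotic kinesin (-0.34), CCNB1, the mitotic cyclin (-0.28), and AURKB, a mitotic kinase (-0.24), fell as well, the call of CCNB1 passing in 14 and that of AURKB in 9 of 25 alternatives. All 20 lay below 0 in L-428, with a median of -0.17, where the 46 replication and G1/S genes had 0.076. The mean of the 20 was 10.32, 10.25 and 10.29 on L-428 tGFP/EBF1 arrays, against 10.51, 10.56 and 10.34 on L-428 tGFP arrays. The number that fell in L-428 ran between 2 and 9 when 1 array was left out. It was 9 without replicate 3 of L-428 tGFP and 2 without replicate 1 or 2 of L-428 tGFP, any 1 of the L-428 tGFP/EBF1 arrays or replicate 2 of L-1236 tGFP. Without both arrays that stood apart 15 fell, after quantile normalization 9 and after median centring 2. In L-1236 PLK1, a mitotic kinase, rose by 0.79, with 11.69, 11.73 and 11.62 in tGFP/EBF1 cells, against 10.87, 10.91 and 10.90 in tGFP cells. In L-428 it stood at -0.25 (adjusted p = 0.0789), and the difference of effects was -1.04 (limma, adjusted p = 9.97e-06).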

How the data were processed

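RNA of sorted tGFP-positive cells was hybridised to 12 Affymetrix arrays of the whole-transcript kind, in 4 groups of 3 that the labels call independent samples. Whether they came from separate transductions is not stated, so p-values measure only the spread between these samples, which may be technical. The authors deposited log2 signals, 1 per row and array; their summarization, normalization and logarithm base were not given in the sources used here, and values up to 14 were read as log2. Rows were named from the platform annotation: of 32321 rows, 19158 carried 1 symbol, 1388 several and 11775 none, and the 20546 with a symbol were tested. Where several rows named 1 gene, the one with the highest mean signal stood for it. All 46 symbols matched RefSeq.

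These log2 values, as deposited by the authors, entered limma unscaled: version 3.58.1 (R 4.3.3; lmFit and eBayes, 4 group means, 8 residual and 9.98 prior degrees of freedom) with Benjamini-Hochberg adjustment over all tested rows, and the limits of an adjusted p of 0.05 and a 2-fold change follow the design text. The fit was tested on simulated data. The members and the gene lists were chosen with earlier results of these data known. Any of the 46 could be named; array values are given for genes that passed in an EBF1 comparison or the difference of effects, for 2-fold line differences in both comparisons and for the genes nearest the threshold in a role with none, and of other lists up to 4 passed genes per EBF1 comparison are named. Alternatives were each array left out, a replicate block, other limits, array weights, median centring, trend and robust variance, every row, a filter on dim rows, quantile normalization, 1 row per symbol and single comparisons; a second method of array weighting was added after seeing the data. Promoters are from RefSeq for GRCh38.p14, and figures were drawn with matplotlib 3.10.9.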

Additional observations from a re-analysis of the deposited data

Results flagged for a closer look

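The EBF1 effect differed between the lines for 2 genes, by the test of the difference itself, L-428 minus L-1236. That is 4.35% of the 46, below the 5.16% of all rows that passed this test. CCNE1 differed by 0.46 on the log2 scale (limma, adjusted p = 0.00572): its change was 0.12 in L-428 and -0.35 in L-1236, and the tGFP/EBF1 and tGFP arrays did not overlap in either line. E2F2 differed by 0.40 (limma, adjusted p = 0.00741), with 0.13 in L-428 and -0.26 in L-1236, again with no overlap in either line. Without both arrays that stood apart the differences were 0.43 for CCNE1 and 0.38 for E2F2. Of the 46 genes, CCNE1 was also the one with the lowest difference between L-428 and L-1236 tGFP cells, at -0.99. The cause of either difference was not tested.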

How the results depend on the processing

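Quantile normalization gave 8 genes that passed in L-428, against 4, and 6 in the difference of effects, against 2. At an adjusted p of 0.01 the L-428 count was 2. With the 2-fold limit the counts were 0 in L-428, 0 in L-1236 and 0 in the difference, 6 between the lines with EBF1 and 10 without. Array weights gave 20 in L-1236 and 14 in the difference, but the weighting stopped before it converged, with a weight of 36.7 for replicate 3 of L-1236 tGFP/EBF1. The gene-by-gene method, added after seeing the data, gave 18 and 10. Without both arrays that stood apart the difference count was 8. With 1 array left out the counts ran from 2 to 5 in L-428, 6 to 12 in L-1236, 2 to 6 in the difference, 39 to 39 between the lines with EBF1 and 32 to 38 without. The other alternatives stayed within 1.5 times. The cause of these shifts was not tested. Of 698 values of single named results, 653 kept direction and side of the threshold, 45 kept direction but no longer passed, and 0 reversed. All of these results were chosen because they had passed. Many values could not reverse, since other limits, the choice of rows or an array left out of another group keep the log2 difference as it was. The tally is therefore no separate test of direction. For arrays of the same replicate number, deviations from the group mean gave correlations of -0.47 to 0.28 over 18 pairs, 4 above 0.1. Between tGFP/EBF1 and tGFP arrays of replicates 1, 2 and 3 they were 0.23, -0.21 and -0.02 in L-428. In L-1236 they were 0.28, -0.07 and 0.19. Deviations from a mean of 3 arrays depend on each other. These values therefore cannot decide whether the numbers pair the arrays. A replicate block gave 4, 10 and 2 genes in L-428, L-1236 and the difference, and 39 and 34 between the lines with and without EBF1. With 3 arrays per group, standard errors near 0.07 limit what could pass, and no background signal was used here, so levels near the array medians may understate changes.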
